A study of Mus musculus with 8 samples.

Results

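miR-103-3p and miR-107-3p are a pair of mature miRNAs that share a seed and are made from introns of pantothenate kinase (Pank) genes. They were chosen by name (mmu-miR-103-3p and mmu-miR-107-3p), as 2 of the 1978 mouse mature miRNAs in the table of read counts, and both were among the 180 miRNAs that had enough reads to be tested. The counts came from 3A cells, a nontumorigenic line of murine hepatocytes, and from extracellular vesicles (EVs) collected from the medium of these cells. Both shCTR and shPCBP2 cells had been infected with a pSUPER retro puro retrovirus and selected with puromycin. The retrovirus of shCTR cells carried a scrambled shRNA, and that of shPCBP2 cells an shRNA against PCBP2, an RNA-binding protein of the poly(rC)-binding family. All cells were kept on collagen with EGF, IGF II, insulin and serum. EVs were collected by ultracentrifugation from medium conditioned for 72 h with EV-depleted serum. Small RNA was sequenced in 8 libraries, 2 from the cells and 2 from the EVs of each shRNA, after a nematode miRNA (cel-miR-39) had been added as a spike-in. PCBP2 itself is not measured by small RNA libraries.

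Pantothenate kinases start the synthesis of coenzyme A, the carrier of acyl groups in fatty acid and pyruvate metabolism. miR-103 and miR-107 lie in introns of these genes and are known to lower insulin sensitivity in liver and fat when their level is high, with caveolin-1, a scaffold of the insulin receptor, as a target. A miRNA finds its targets mainly through its seed, bases 2 to 8 from the 5′ end. The mature sequences of the pair and of miR-16-5p are shown because they tell which reads belong to which miRNA and how the pair relates to the miR-15/16 family. The seed is in capitals.
miR-103-3p: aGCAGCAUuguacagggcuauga
miR-107-3p: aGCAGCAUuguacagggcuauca
miR-16-5p: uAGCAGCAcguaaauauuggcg

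Both members are 23 bases long and differ by a single substitution, G22C from miR-103-3p to miR-107-3p, counted from the 5′ end. Reads that end before base 22 fit both sequences, so the counts of each member depend on how such reads were assigned, and a small leak of miR-103-3p reads would weigh more on miR-107-3p. Of the 1679 miRNAs of the table with a RefSeq sequence, these 2 were the only ones with the seed GCAGCAU. The seed of miR-16-5p equals bases 1 to 7 of the pair, which sets the miR-15/16 family 1 base away in its pairing with targets.

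miR-103-3p comes from 2 hairpins with the same mature sequence, so its reads cannot be assigned to a locus. On GRCm38.p6, the hairpin of Mir103-1 lies at chr11:35782396-35782481 on the plus strand in intron 5 of 6 of Pank3, and the hairpin of Mir103-2 at chr2:131288052-131288137 on the plus strand, within an intron of both protein-coding transcripts of Pank2. The hairpin of Mir107 lies at chr19:34820687-34820773 on the minus strand, within an intron of all 3 protein-coding transcripts of Pank1. None overlaps an annotated exon of its host, and each has the strand of its host. The hairpins are shown with the mature 3p strand in capitals, since their 5p strands are used below to tell the loci apart.
Mir103-1: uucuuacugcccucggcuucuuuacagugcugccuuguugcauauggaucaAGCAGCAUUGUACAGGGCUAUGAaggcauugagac
Mir103-2: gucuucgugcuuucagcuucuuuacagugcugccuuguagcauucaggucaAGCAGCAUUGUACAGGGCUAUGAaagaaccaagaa
Mir107: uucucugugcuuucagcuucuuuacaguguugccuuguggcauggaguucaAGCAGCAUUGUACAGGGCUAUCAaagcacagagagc

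Between 26391248 and 38166798 reads were counted in each library. Mouse miRNAs received 8745848 to 12732173 of these reads in cells and 503070 to 687592 in EVs, and the spike-in took from 57.4% to 66.9% of the reads in cells and from 97.6% to 98.4% in EVs. A level is given below as reads per 1000000 spike-in reads (spike-in RPM), and the amount of RNA or number of cells behind each spike-in dose is not given in the sources used here. Fewer cells or vesicles in a sample and less of a miRNA in each of them cannot be told apart on this scale. The hepatocyte label was set against miR-122-5p, miR-192-5p and miR-194-5p. miR-194-5p was abundant in cells, with 218474 to 342726 counts, while miR-122-5p, the miRNA that dominates adult hepatocytes, had only 356 to 485 counts there and 795 to 2327 in EVs. Summed over the 3 markers the level was 13024 to 20407 spike-in RPM in cells and 184 to 293 in EVs, where miR-192-5p was at 0 in both shPCBP2 libraries. Erythroid markers (miR-486a-5p, miR-451a and miR-144-3p) summed to 3.85 to 10.8 spike-in RPM in cells, where miR-451a and miR-144-3p were at 0, and to 1009 to 1275 in EVs, where each of the 3 had reads in every library. Leukocyte markers (miR-142a-3p, miR-142a-5p, miR-150-5p and miR-223-3p) summed to 0.786 to 5.05 in cells, with both miR-142a strands at 0, and to 234 to 422 in EVs, where only miR-142a-5p was at 0 in a library (EV shCTR replicate 2). The labels name only 3A cells and their EVs, and the EVs came from medium with EV-depleted serum. The source of the erythroid and leukocyte markers in EVs, and its part in the EV levels of the pair, was not tested.

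miR-103-3p was one of the most abundant miRNAs of these hepatocytes. It ranked 4th in every cell library and 7th or 8th in every EV library. The shCTR cells gave 667980 and 589151 counts, and the shPCBP2 cells 481733 and 691726. EVs gave 21249 and 18433 counts with shCTR, and 21854 and 17660 with shPCBP2. Relative to the spike-in, the shCTR cells had 37481.5 and 37443.5 spike-in RPM, the shPCBP2 cells 27301 and 38820, the shCTR EVs 765 and 708, and the shPCBP2 EVs 582 and 581. The cell libraries lay far above the EV libraries, the conditions overlapped in cells, and both EV shPCBP2 libraries lay below both EV shCTR libraries. The mean level of the cells was 37462.5 ± 26.9 with shCTR and 33060 ± 8145 with shPCBP2, and that of the EVs 737 ± 40.5 with shCTR and 581 ± 0.897 with shPCBP2 (SD, n = 2).

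miR-107-3p was far rarer and ranked from 46th to 56th in cells and from 63rd to 96th in EVs. The shCTR cells gave 24845 and 21145 counts, and the shPCBP2 cells 22296 and 30782. EVs gave 880 and 1125 counts with shCTR, and 462 and 925 with shPCBP2. The EV shPCBP2 replicate 1 library had the lowest count. The levels were 1394 and 1344 spike-in RPM for the shCTR cells, 1264 and 1727.5 for the shPCBP2 cells, 31.7 and 43.2 for the shCTR EVs, and 12.3 and 30.4 for the shPCBP2 EVs. As for miR-103-3p, the conditions overlapped in cells, and both EV shPCBP2 libraries were below both EV shCTR libraries, here by a narrow margin. The mean level of the cells was 1369 ± 35.5 with shCTR and 1496 ± 328 with shPCBP2, and that of the EVs 37.5 ± 8.15 with shCTR and 21.4 ± 12.8 with shPCBP2 (SD, n = 2).

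**Figure D1:**
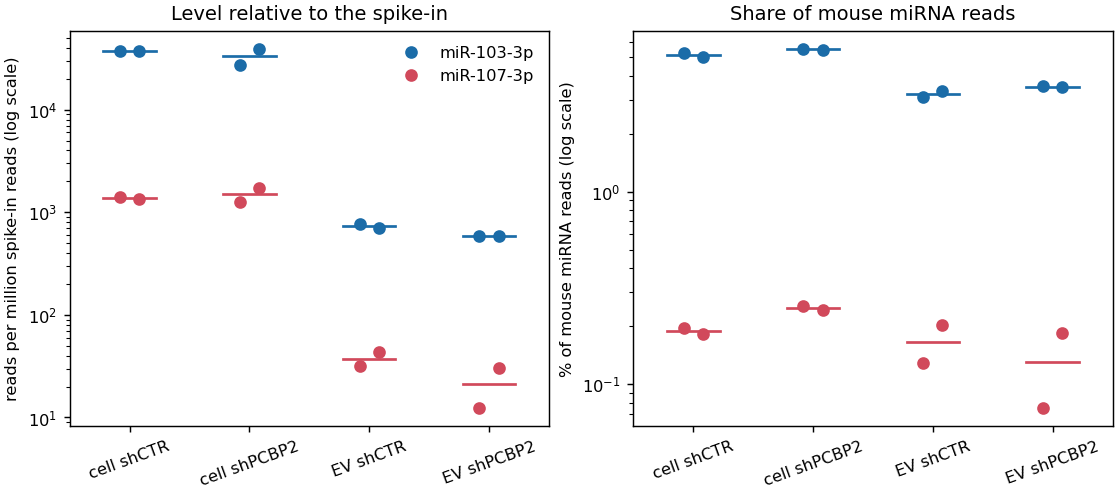
Level of miR-103-3p (blue) and miR-107-3p (red) in each library as reads per 1000000 spike-in reads (left) and as percent of mouse miRNA reads (right), both on log axes, with 1 point per library and a line at the mean of the 2 replicates. On the spike-in scale, EV levels lie far below cell levels for both, and the miR-107-3p replicates of EV shPCBP2 stand furthest apart, at 12.3 and 30.4.

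The spread between replicates differed between the members. For miR-103-3p the replicates differed, on the log2 scale, by 0.00 (shCTR) and 0.51 (shPCBP2) in cells and by 0.11 (shCTR) and 0.00 (shPCBP2) in EVs. For miR-107-3p the differences were 0.05, 0.45, 0.45 and 1.31 in the same order. The median over the 113 miRNAs with at least 10 counts in every library was 0.17, 0.46, 0.36 and 0.33. In EV shPCBP2, 87.6% of these miRNAs had a smaller difference than miR-107-3p. In EVs the replicates thus lay closer together for miR-103-3p than for miR-107-3p. A difference between single libraries is a poor measure of replicate error.

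The first comparison was between EVs and cells. Both members were lower in EVs than in cells relative to the spike-in. For miR-103-3p the log2 EV/cell ratio was -5.67 (standard error 0.23) in shCTR, a level 50.9-fold lower in EVs, and -5.83 (standard error 0.23) in shPCBP2. Both passed the correction, with an adjusted p of 5.78e-06 and 5.10e-06 in edgeR's quasi-likelihood test. For miR-107-3p the log2 ratio was -5.19 (standard error 0.55) in shCTR, a level 36.5-fold lower in EVs, and -6.13 (standard error 0.57) in shPCBP2, with an adjusted p of 2.01e-04 and 1.04e-04 in the same test. Of all 180 tested miRNAs, 59.4% were called lower in EVs in shCTR and 60% in shPCBP2, so that both members did what most miRNAs did.

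Over all tested miRNAs the median log2 ratio of EVs to cells was -4.93 in shCTR with the spike-in, 0.06 when scaled to the total mouse miRNA count, -0.17 by TMM and -0.15 by median of ratios. A scaling shifts all miRNAs nearly alike, so the distance of a member from this median hardly depends on it. With the spike-in, miR-103-3p lay -0.74 from the median on the log2 scale in shCTR and -0.93 in shPCBP2, and miR-107-3p -0.26 and -1.23. miR-103-3p passed the correction under each scaling. The log2 EV/cell ratio of miR-107-3p in shCTR did not pass it by total count (-0.18), TMM (-0.41) or median of ratios (-0.39). In shPCBP2 it passed by TMM (-1.53, adjusted p = 0.0450 in edgeR's test) but not by total count (-0.95) or median of ratios (-1.32).

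The share of mouse miRNA reads needs no spike-in. miR-103-3p made up 5.25% and 5.04% of these reads for the shCTR cells, 5.51% and 5.47% for the shPCBP2 cells, 3.09% and 3.33% for the shCTR EVs, and 3.53% and 3.51% for the shPCBP2 EVs. The widest 95% Wilson interval was 3.46% to 3.56%, in EV shPCBP2 replicate 2, and covers counting error only. All EV shares were below all cell shares, as for 24.4% of the tested miRNAs. miR-107-3p made up 0.195% and 0.181% for the shCTR cells, 0.255% and 0.244% for the shPCBP2 cells, 0.128% and 0.203% for the shCTR EVs, and 0.0747% and 0.184% for the shPCBP2 EVs. Its EV and cell shares overlapped.

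The second comparison, between shPCBP2 and shCTR in cells, showed no call for either member. The log2 change relative to the spike-in was -0.18 (standard error 0.19, 95% interval from -0.63 to 0.27, adjusted p = 0.885 in edgeR's test) for miR-103-3p and 0.13 (standard error 0.46, 95% interval from -0.99 to 1.25, adjusted p = 0.938 in edgeR's test) for miR-107-3p. The replicates of the shPCBP2 cells differed by more than either change (0.51 and 0.45 on the log2 scale), and those of the shCTR cells by less. No tested miRNA was called in cells (0% of 180), while 25 (13.9%) had an unadjusted p under 0.05 in edgeR and 18 were called with DESeq2. The sign for miR-103-3p turned by total count (0.10), TMM (0.30) and median of ratios (0.22), and it was 0.05 without cell shPCBP2 replicate 1. The sign for miR-107-3p turned without cell shPCBP2 replicate 2 (-0.12).

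Against the median of all tested miRNAs, both members lay on the upper side of the cell changes. That median was -0.49 with the spike-in, and miR-103-3p was 0.31 and miR-107-3p 0.62 above it. miR-107-3p had the 171st and miR-103-3p the 147th lowest change of 180. As a share of mouse reads, both members were higher in both cell shPCBP2 libraries than in both cell shCTR libraries, which was so for 13.9% of the tested miRNAs. On the spike-in scale 66.7% of the tested miRNAs were lower in both shPCBP2 cell libraries, and neither member was among them.

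In EVs, the change with shPCBP2 was not called for either member. The log2 change relative to the spike-in was -0.34 (standard error 0.19, 95% interval from -0.79 to 0.11, adjusted p = 0.404 in edgeR's test) for miR-103-3p and -0.81 (standard error 0.46, 95% interval from -1.94 to 0.32, adjusted p = 0.425 in edgeR's test) for miR-107-3p. Of the tested miRNAs, 7.22% were called in EVs. Both EV shPCBP2 levels lay below both EV shCTR levels for the 2 members, as for 42.2% of the tested miRNAs. The median of all tested miRNAs was -0.54, with miR-103-3p 0.20 above it and miR-107-3p -0.27 from it. The miR-103-3p change became 0.13 by total count and 0.05 by median of ratios, and its share of mouse reads was higher in both EV shPCBP2 libraries, as for 17.8% of the tested miRNAs. The miR-107-3p change was -0.30 without EV shPCBP2 replicate 1, -1.61 without EV shPCBP2 replicate 2, -1.02 without EV shCTR replicate 1 and -0.57 without EV shCTR replicate 2.

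The last comparison asks whether the EV/cell ratio differs between shPCBP2 and shCTR, which is the question the study put to its libraries. For miR-103-3p the log2 change of the ratio was -0.16 (standard error 0.26, 95% interval from -0.80 to 0.48) and for miR-107-3p it was -0.94 (standard error 0.65, 95% interval from -2.52 to 0.65). Neither passed the correction, with an adjusted p of 0.992 and 0.987 in edgeR's quasi-likelihood test, and 2.22% of the tested miRNAs did. In this fit, the approximate interval of miR-103-3p leaves out any change of the ratio by 1 log2 unit or more in either direction. That of miR-107-3p includes a change of -1. Intervals were not derived for the alternatives, so this limit holds for this fit only. The fitted ratio of miR-103-3p was 0.04 by total count and 0.12 without cell shPCBP2 replicate 2. For miR-107-3p it stayed below 0 in all 17 alternatives run. In 1 of these (-0.19) the counts of the pair were added, and most were of miR-103-3p. The size of the miR-107-3p change depended on both EV shPCBP2 libraries, with -0.43 without EV shPCBP2 replicate 1 and -1.73 without EV shPCBP2 replicate 2. Over these alternatives the adjusted p ranged from 0.187 to 1.00 for miR-103-3p and from 0.122 to 1.00 for miR-107-3p.

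**Figure D2:**
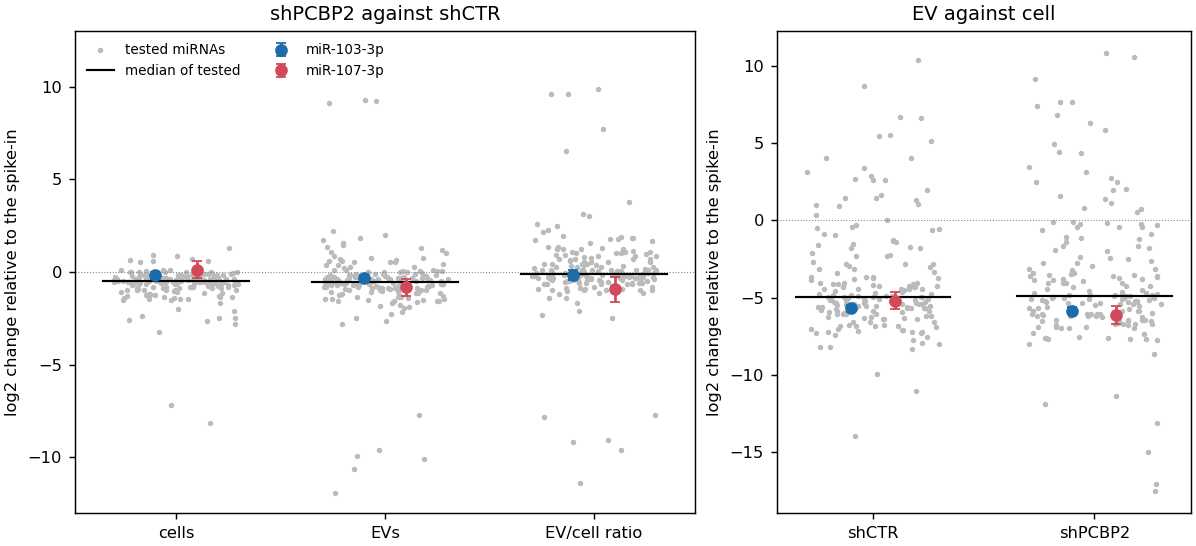
Fitted log2 change relative to the spike-in of miR-103-3p (blue) and miR-107-3p (red) with standard errors as bars, among all 180 tested miRNAs (grey points, spread sideways at random) and their median (black line), for shPCBP2 against shCTR (left) and EV against cell (right). In cells both members lie above the median of -0.49, and for the EV/cell ratio miR-107-3p lies at -0.94 with a standard error of 0.65 against 0.26 for miR-103-3p.

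The ratio of the members within a library depends neither on the spike-in nor on the total. miR-107-3p made up 3.59% and 3.46% of the reads of the pair in cell shCTR, and 4.42% and 4.26% in cell shPCBP2. In EVs it made up 3.98% and 5.75% in shCTR, and 2.07% and 4.98% in shPCBP2. The cell replicates lay close together and the EV replicates did not. The 95% Wilson intervals were 1.89% to 2.27% in EV shPCBP2 replicate 1 and 4.67% to 5.30% in replicate 2. The counting error of reads alone is thus smaller than the spread between these libraries. Put as miR-103-3p reads per miR-107-3p read, the cell libraries held 21.6 to 27.9, EV shPCBP2 replicate 1 held 47.3, and the other EV libraries held 16.4, 24.1 and 19.1.

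Over all libraries, the log2 ratio of miR-107-3p to miR-103-3p was -4.62 ± 0.18 in cells and -4.61 ± 0.68 in EVs (SD, n = 4 each), a difference of 0.01 with p = 1 in a two-sided exact permutation test, where 0.0286 is the smallest p possible. Cells and EVs of 1 shRNA come from the same lines in this test, and a difference smaller than the spread of the EV libraries was not detectable. The EV minus cell difference was 0.46 in shCTR and -0.45 in shPCBP2, and it was 0.32 without EV shPCBP2 replicate 1. In cells, the log2 ratio was -4.77 ± 0.04 in shCTR and -4.46 ± 0.04 in shPCBP2 (SD, n = 2), so that miR-107-3p was 1.24-fold higher against miR-103-3p in shPCBP2. The libraries did not overlap, but with 2 against 2 an exact test cannot give a two-sided p under 0.333. Among the other tested miRNAs, 11.2% of 179 had a higher ratio to miR-103-3p in both cell shPCBP2 libraries, miR-107-3p included.

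**Figure D3:**
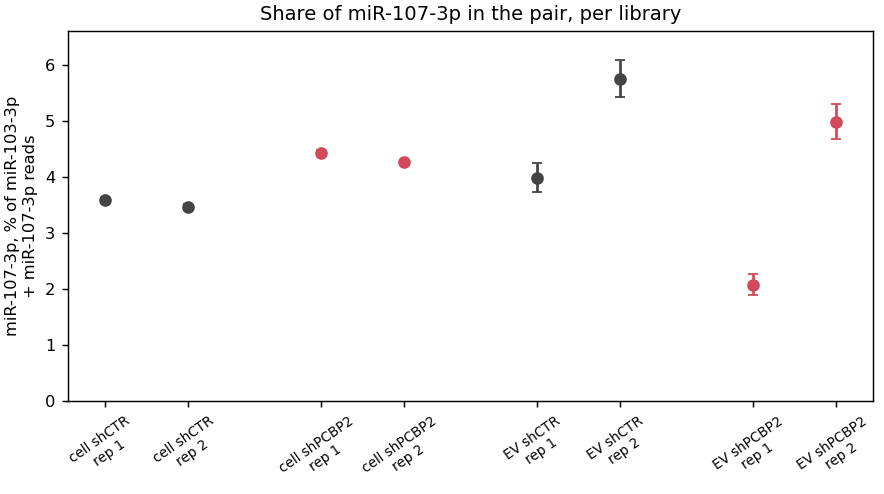
Share of miR-107-3p among the reads of miR-103-3p and miR-107-3p in each of the 8 libraries (percent, shCTR in grey, shPCBP2 in red), with 95% Wilson intervals as bars, which are shorter than the symbols in cells. The cell libraries fall between 3.46% and 4.42%, with shPCBP2 above shCTR, and the EV libraries range from 2.07% to 5.75%.

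The opposite, 5p strands of these hairpins can tell the loci apart, and are shown with the base that differs in capitals.
miR-103-1-5p: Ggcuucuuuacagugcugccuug
miR-103-2-5p: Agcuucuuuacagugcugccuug
miR-107-5p: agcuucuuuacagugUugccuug
The substitutions are G1A from miR-103-1-5p to miR-103-2-5p and C16U from miR-103-2-5p to miR-107-5p. None of the 3 was tested. miR-103-2-5p, from the Pank2 locus, had 24 and 29 counts for the shCTR cells and 12 and 6 for the shPCBP2 cells. In EVs it had 0 counts in both shCTR libraries and in shPCBP2 replicate 2, and 136 in shPCBP2 replicate 1. miR-103-1-5p, from the Pank3 locus, had 1 count in cell shCTR replicate 2, 1 in EV shPCBP2 replicate 1 and none elsewhere. miR-107-5p had 16 counts in cell shCTR replicate 2 and 0 in every other library. The 5p strands together made up at most 0.00754% of the reads of these hairpins in a cell library, and 0.610% in EV shPCBP2 replicate 1. A count of 0 allows up to 3 counts, which is a share of at most 0.000596% of the mouse reads of an EV library, so 5p strands below that share were not detectable at this depth. The single base between miR-103-1-5p and miR-103-2-5p is the first of the strand, and reads that lack it fit both.

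The study asks about 2 kinds of short motif in miRNAs, CELL, tied to retention in cells, and hEXO, tied to loading in EVs. Of the CELL motif only the core form (AUUA or AUUG) was searched here. The study also scanned for an extended CELL motif and assigned some miRNAs by it, so those are not covered by the AUUG counts. Of the hEXO motif only the letters GGCU, which lie within it, were searched here, on the strand of the mature miRNA. Both members hold AUUG at bases 7 to 10 and GGCU at bases 16 to 19, in capitals here.
miR-103-3p: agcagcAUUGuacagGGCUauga
miR-107-3p: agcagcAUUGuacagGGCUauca
AUUG overlaps the last bases of the seed, and the base that separates the members lies outside both marked stretches. The whole hEXO pattern of the study, with its variable letters, was not searched. In both members an A follows GGCU, where the pattern as the study writes it has G or C. The pattern may still lie elsewhere in them. Holding GGCU thus does not show the whole motif, and lacking GGCU does not exclude it. The counts below are of these letters and not of the miRNAs that the study takes to hold both motifs. Among the 1679 miRNAs with a RefSeq sequence, 6.79% hold AUUG, 2.50% hold AUUA, 13.3% hold GGCU and 0.596% hold both AUUG and GGCU. Of the 180 tested miRNAs, 156 had a sequence, and 3 of these hold AUUG and GGCU, namely miR-103-3p, miR-107-3p and miR-3102-3p. Their EV/cell ratio changed by -0.16, -0.94 and 3.04 on the log2 scale between shPCBP2 and shCTR, the last with a standard error of 3.94, and none was called. Over all tested miRNAs the median change was -0.08 and 2.22% were called, a share that gives few or no calls in sets as small as these. The 25 tested miRNAs with AUUG had a median change of -0.01, with 10 higher, 15 lower and 0 called. The 24 with GGCU had a median change of -0.36, with 8 higher, 16 lower and 0 called. A match of these letters does not show binding of a protein.

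The miR-15/16 family has its seed 1 base away from that of the pair, and its members are known for arresting the cell cycle. Of the 7 miRNAs listed for it, 6 carry that seed and miR-503-5p does not, and 6 could be tested. miR-497a-5p had no EV reads and was not tested. In shCTR, 5 of 6 were called lower and 0 higher in EVs than in cells, where 59.4% of all tested miRNAs were called lower and 6.67% higher, with a median log2 EV/cell ratio of -4.37 beside -4.93 for all tested miRNAs and -5.67 for miR-103-3p. miR-16-5p, the most abundant of them, had a ratio of -4.41 (standard error 0.26), which turned to 0.57 by total count and 0.36 by TMM and by median of ratios. miR-195a-5p had a ratio of 1.64 (standard error 1.05, adjusted p = 0.195 in edgeR's test) on at most 50 counts in a cell library, and it was called higher by total count (6.66), TMM (6.41) and median of ratios (6.46). Between shPCBP2 and shCTR, the EV/cell ratio was called for 0 of 6, beside 2.22% of all tested miRNAs. The median was -0.18, beside -0.08 for all tested miRNAs. In EVs miR-322-5p was lower in shPCBP2, with 2875 and 2104 counts in shCTR against 758 and 1138 in shPCBP2 and a log2 change of -1.68 (standard error 0.35, adjusted p = 0.0396 in edgeR's test), and 5.56% of all tested miRNAs were called lower there. In cells miR-322-5p had 76279 and 68004 counts with shCTR against 28762 and 40304 with shPCBP2, a log2 change of -1.14 (standard error 0.34) that did not pass (adjusted p = 0.233 in edgeR's test). The EV call was kept in 3 of 17 alternatives, with changes from -2.19 to -1.20 over all of them.

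Other miRNAs tied to glucose and lipid metabolism in liver were followed as a list of 11, of which 8 could be tested. In shCTR 6 of 8 were called lower and 1 higher in EVs, beside 59.4% and 6.67% of all tested miRNAs, with a median log2 EV/cell ratio of -4.73. miR-27b-3p, which acts on lipid genes, had the lowest ratio of the list, -7.22 (standard error 0.33), and miR-34a-5p, which represses Sirt1, had -7.10 (standard error 0.51). Both were lower than miR-103-3p at -5.67 (standard error 0.23). miR-26a-5p, which is linked to insulin sensitivity, had -4.20 (standard error 0.26), which turned to 0.78 by total count and 0.57 by TMM and by median of ratios. The miRNA called higher in EVs was miR-143-3p, with 138 and 42 counts for the shCTR cells and 1445 and 601 for the shCTR EVs, a log2 ratio of 2.85 (standard error 1.01, adjusted p = 0.0460 in edgeR's test). This call was kept in 9 of 17 alternatives and was lost, for example, without EV shCTR replicate 1 (2.15). miR-122-5p had a log2 ratio of 1.02 (standard error 0.75) and was not called with the spike-in, but it was called higher by total count (5.96), TMM (5.77) and median of ratios (5.74).

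With shPCBP2, no miRNA of the metabolic list had a called change of the EV/cell ratio or of the cell level. Of all tested miRNAs, 2.22% were called for the ratio and 0% in cells. The median change of the ratio was -0.23, beside -0.08 for all tested miRNAs. In EVs 1 of 8 was called, beside 7.22% of all tested miRNAs (5.56% lower), namely miR-29a-3p, which represses collagen genes and rises in diabetic liver. It had 717 and 509 counts with shCTR against 317 and 210 with shPCBP2, a log2 change of -1.56 (standard error 0.30, adjusted p = 0.0333 in edgeR's test). In cells its mean level was 1533 spike-in RPM with shCTR and 800 with shPCBP2, a log2 change of -0.94 (standard error 0.30) that did not pass (adjusted p = 0.258 in edgeR's test). The EV call was kept in 7 of 17 alternatives, with changes from -1.75 to -1.08 over all of them. miR-29b-3p, with the same seed, changed by -1.86 (standard error 0.44) and did not pass (adjusted p = 0.0662 in edgeR's test). The not tested members were miR-33-5p, which targets the cholesterol transporter Abca1 and had 170 to 278 counts in cells and none in EVs, miR-29c-3p, read in 1 EV library with 71 counts, and miR-802-5p, with at most 8 counts.

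**Figure D4:**
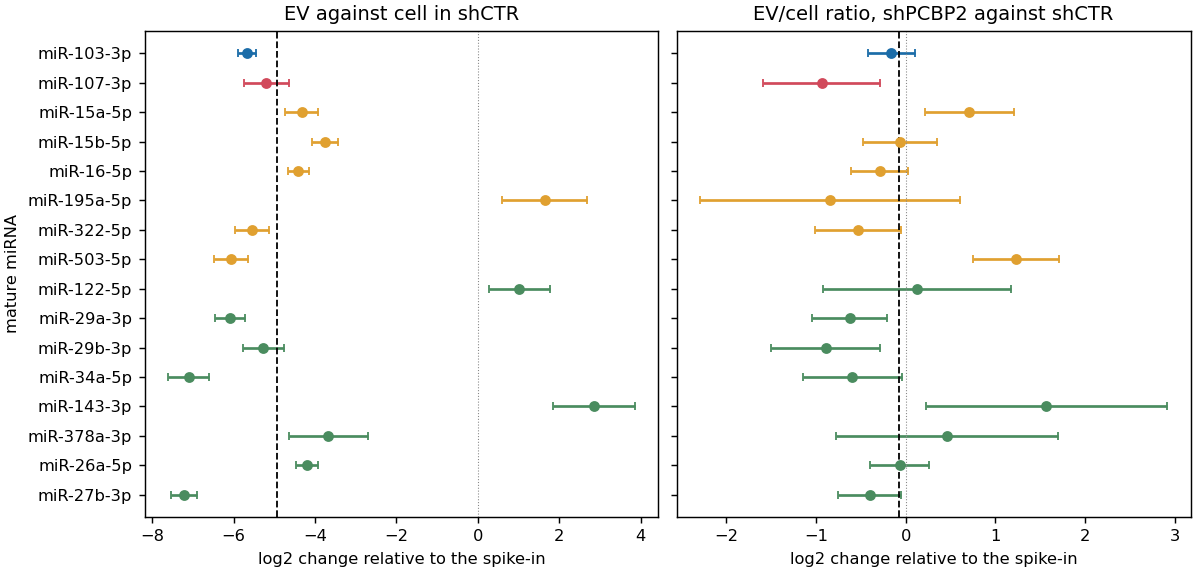
Fitted log2 change relative to the spike-in, with standard errors, of miR-103-3p (blue), miR-107-3p (red), the tested miR-15/16 family list (orange) and the tested metabolic list (green), for EV against cell in shCTR (left) and for the change of the EV/cell ratio with shPCBP2 (right). The dashed line is the median of all 180 tested miRNAs, at -4.93 and -0.08. miR-122-5p, miR-143-3p and miR-195a-5p alone lie above 0 on the left on this scale, and the bars of most miRNAs cross or come near the dashed line on the right.

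The miRNAs with the profile most like each member were found from the root mean square difference of the log2 level over the 8 libraries, after each miRNA was centred on its own mean. For miR-103-3p they were miR-224-5p (0.11), let-7f-5p (0.12) and miR-10a-5p (0.15), beside a median of 1.49 over all tested miRNAs. For miR-107-3p they were miR-106b-5p (0.29), let-7d-5p (0.39) and miR-574-5p (0.39), beside a median of 1.55. The members were at 0.43 from each other, so that miR-107-3p was the 21st most like miR-103-3p, and miR-103-3p the 6th most like miR-107-3p. In EVs, miR-106b-5p had 4030 and 3110 counts with shCTR against 1790 and 3121 with shPCBP2, and miR-574-5p had 1489 and 942 against 717 and 1443. Like miR-107-3p, both had their lowest EV count in EV shPCBP2 replicate 1. They were picked for likeness to miR-107-3p over these same libraries, so this shared low count is not a separate result. For let-7d-5p the counts were 8562 in EV shPCBP2 replicate 1 and 8292 in replicate 2. These counts are not scaled, and the spike-in took 37548200 reads in replicate 1 and 30408600 in replicate 2. The higher count of let-7d-5p in replicate 1 is therefore not a higher level relative to the spike-in. All of these profiles share the libraries and the large step between cells and EVs, so the distances are a description.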

How the data were processed

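Small RNA of 4 cell and 4 EV libraries was measured, with 2 replicates in each of 4 groups, numbered as in the titles and called biological replicates in the study's methods. The authors trimmed the reads, kept the forward read, ran mirPRo with NovoAlign against the hairpins of miRBase and the spike-in, and deposited raw counts per mature miRNA, not normalized. How reads that fit both members were assigned is not given in the sources used here.

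Counts were tested with edgeR 4.0.16 (glmQLFit and glmQLFTest) in R 4.3.3, with library sizes set to the spike-in count and compartment, shRNA and interaction modelled over all libraries. A miRNA entered if at least 2 cell libraries and at least 2 EV libraries held 1 read or more of it. A call is an adjusted p under 0.05 (Benjamini-Hochberg, over all 180). Standard errors and 95% intervals were derived from the F statistic and are approximate. The fit was checked on simulated counts. Descriptions used scipy 1.17.1, numpy 2.4.6 and pandas 2.3.3 in Python 3.11.15, with a pseudocount of 0.5 for likeness. Wilson intervals and the floor of 3 counts cover counting error only, since PCR copies without molecular identifiers may stem from 1 molecule.

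The members and lists were chosen with earlier results of these data known. Named miRNAs are the members, their opposite strands, both lists, cell type markers and the 3 most alike per member. In addition, miR-3102-3p was named for its AUUG and GGCU after its values were seen. The motif counts were added after the tests were designed. Alternatives were 3 other scalings, 2 other filters, DESeq2 1.42.0, limma 3.58.1 with voom, a replicate block, the members' counts added, only the 4 libraries compared (not for the EV/cell ratio between shRNAs), and each library left out. Sequences and coordinates are from RefSeq on GRCm38.p6, with 1679 of 1978 miRNAs matched, and exons from GENCODE on the same build.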

Additional observations from a re-analysis of the deposited data

Results flagged for a closer look

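miR-103-2-5p, the opposite strand of the Pank2 hairpin, was too rare for the tests but had 136 counts in EV shPCBP2 replicate 1, against 0 in both EV shCTR libraries and in EV shPCBP2 replicate 2. This library also held the smallest share of miR-107-3p in the pair, 2.07%. The cause was not tested.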

How the results depend on the processing

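miR-103-3p stayed lower in EVs than in cells, with a call, in all 18 alternatives run for each shRNA, from -5.73 to -0.68 on the log2 scale in shCTR and from -6.06 to -0.64 in shPCBP2. miR-107-3p stayed lower too. Counting in the fit of the added pair, where most reads were of miR-103-3p, it kept its call in 15 of 18 alternatives in shCTR. In shPCBP2 it kept the call in 16 of 18, counted in the same way. It lost the call by total count (-0.18), TMM (-0.41) and median of ratios (-0.39) in shCTR, and by total count (-0.95) and median of ratios (-1.32) in shPCBP2. No change between shPCBP2 and shCTR gained a call for either member in any alternative. Signs turned for miR-103-3p in cells by total count (0.10), TMM (0.30) and median of ratios (0.22), in EVs by total count (0.13) and median of ratios (0.0495), and for its EV/cell ratio by total count (0.0386). With the counts of the pair added, the change in cells was -0.17, which is mostly that of miR-103-3p and differs in sign from that of miR-107-3p. In shCTR the EV/cell ratio of 2 other named miRNAs turned by total count, TMM and median of ratios, to 0.574, 0.356 and 0.361 for miR-16-5p and to 0.784, 0.566 and 0.572 for miR-26a-5p. The medians of all miRNAs moved with these scalings, and further causes were not tested. With 1 library left out, the changes of miR-103-3p ranged from -0.46 to 0.0514 in cells, -0.40 to -0.28 in EVs and -0.39 to 0.12 for the ratio, and those of miR-107-3p from -0.12 to 0.34, -1.61 to -0.30 and -1.73 to -0.43. A group left with 1 library is then assumed to vary like the others. The log2 ratio of miR-107-3p to miR-103-3p, EV minus cell, ranged from -0.19 to 0.32 with 1 library left out and was -0.45 in shPCBP2 alone.

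The number of miRNAs called depended on the settings. For the EV/cell ratio between the shRNAs it was 4, with 1 higher and 3 lower, against 6 by total count (4 higher, 2 lower), 13 by TMM (5 and 8), 2 by median of ratios (1 and 1), 14 with DESeq2 (9 and 5), 0 with limma voom (12 at an unadjusted p under 0.05), 0 with at least 10 counts in every library (6 at an unadjusted p under 0.05 in edgeR), and 0 to 12 with 1 library left out. In EVs it was 13, against 7 with no filter, 7 with at least 10 counts, 27 with DESeq2, 4 with limma voom, 1 with only the 4 libraries compared, and 1 to 18 with 1 library left out. In cells it was 0 in edgeR, against 3 by total count, 5 by TMM, 1 by median of ratios, 8 with at least 10 counts, 18 with DESeq2, 16 with limma voom, 39 with only the 4 libraries compared, and 0 to 3 with 1 library left out. Between EVs and cells it was 119 in shCTR (12 higher, 107 lower) and 122 in shPCBP2 (14 and 108), and 294 in each with no filter. In shCTR there were 75 by total count (43 higher, 32 lower), 42 higher and 40 lower by TMM, and 76 by median of ratios (40 and 36), and in shPCBP2 54 higher and 35 lower by total count, 42 and 45 by TMM, and 45 and 41 by median of ratios. With 1 library left out it was 102 to 133 and 104 to 131.

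The titles give the groups the same replicate numbers, while the descriptions number some libraries otherwise. Over 113 miRNAs the replicate differences of groups with shared numbers correlated at -0.02 to 0.21, so the numbers are not taken as pairs. With a replicate block the EV/cell ratio changed by -0.15 for miR-103-3p and -0.97 for miR-107-3p, and 1 miRNA was called for the ratio and 2 in EVs. EV libraries held 462 to 1125 reads of miR-107-3p, which keeps the counting error of reads small beside the spread between replicates. How many molecules stood behind these reads is not known, since PCR copies could not be told apart.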
